A study of Mus musculus with 6 samples.

Results

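Trim67, Kctd1, Sh3bp5 and Nap1l3 were followed across 3 groups of mouse embryonic stem cells, because their signals differed widely on the arrays of cells given SB431542 and none of them has a settled place in Activin/Nodal signalling. All 7 probe sets annotated to these 4 genes were taken, of 45037 probe sets and 18193 named genes in all. Trim67 and Nap1l3 have 1 probe set each, Kctd1 has 2 and Sh3bp5 has 3. The genes were selected on their log2 differences between SB431542 arrays and the other arrays, so every difference between those arrays and another group is given below as a description with no test.

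The cells were of the line E14Tg2a, which is kept without feeder cells. The 3 groups were cells given SB431542 at 5 µM for 24 h, cells given activin at 10 ng/ml for 2 h, and untreated control cells. Every group, control included, grew in serum-free N2B27 medium that held 20 ng/ml of BMP4 and 1000 U/ml of LIF. Each group had 2 single-colour Affymetrix arrays of total RNA. No source used here names a vehicle for the control cells, and the treated groups differ in duration as well as agent. All arrays come from the same cell line, and nothing says whether the 2 arrays of a group were separate cultures.

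Activin and Nodal bind serine/threonine kinase receptors that phosphorylate Smad2 and Smad3, which enter the nucleus with Smad4 and act on target genes together with partners such as Foxh1. SB431542 blocks the kinase of the type I receptors for Activin, Nodal and TGF-beta, and leaves the receptors that BMP4 uses largely active. In embryonic stem cells the pathway drives its own feedback genes, such as the antagonists Lefty1 and Lefty2, while BMP4 drives the Id genes. Trim67 is a ubiquitin ligase of the tripartite motif family, known from brain, where it acts with the netrin receptor Dcc. Kctd1 carries a BTB domain and represses the AP-2 transcription factor Tfap2a. Sh3bp5, also called Sab, sits on the outer mitochondrial membrane, where it docks the kinase JNK, and it activates the small GTPase Rab11. Nap1l3 belongs to the nucleosome assembly protein family of histone chaperones and is X-linked.

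RefSeq promoter windows of the mouse build GRCm38.p6, from 250 bases before a transcript start to 50 bases after it, matched Trim67, Sh3bp5 and Nap1l3. They are shown because Trim67 stood lower and the others higher on the SB431542 arrays. The windows lie at chr8:124792769-124793068 on the plus strand for Trim67, at chr14:31436051-31436350 on the minus strand for the upstream start of Sh3bp5, and at chrX:122397336-122397635 on the minus strand for Nap1l3. The annotated Trim67 gene begins at chr8:124791317, before its window, so that window lies inside the annotated gene. Each window is written 5′ to 3′ along its gene, with capitals marking matches on either strand to any of the 4 Smad and Foxh1 motifs spelled out after the sequences.
Trim67: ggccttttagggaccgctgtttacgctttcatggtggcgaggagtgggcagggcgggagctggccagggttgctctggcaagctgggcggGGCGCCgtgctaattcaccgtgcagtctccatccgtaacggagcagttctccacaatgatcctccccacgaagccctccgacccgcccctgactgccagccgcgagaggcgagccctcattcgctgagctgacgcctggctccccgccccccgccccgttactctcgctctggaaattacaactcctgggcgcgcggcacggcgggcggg
Sh3bp5: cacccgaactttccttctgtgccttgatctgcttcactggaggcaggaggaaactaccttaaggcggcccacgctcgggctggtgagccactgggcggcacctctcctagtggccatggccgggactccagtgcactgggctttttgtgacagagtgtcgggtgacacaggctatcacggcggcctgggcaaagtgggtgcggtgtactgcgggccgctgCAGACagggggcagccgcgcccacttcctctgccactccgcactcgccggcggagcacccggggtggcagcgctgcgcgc
Nap1l3: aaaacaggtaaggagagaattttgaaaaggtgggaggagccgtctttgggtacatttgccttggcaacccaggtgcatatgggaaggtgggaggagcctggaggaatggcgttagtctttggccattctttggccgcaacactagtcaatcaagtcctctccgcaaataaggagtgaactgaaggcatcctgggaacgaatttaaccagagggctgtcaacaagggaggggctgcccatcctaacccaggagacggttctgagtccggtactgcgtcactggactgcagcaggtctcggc
The motif CAGAC is part of the Smad box, GTCTAGAC is its palindrome, which overlaps it, GGCGCC is a GC-rich Smad site and TGTGNATT is a Foxh1 motif. Among 32851 promoter windows of this length, CAGAC was in 49.6%, GTCTAGAC in 0.213%, GGCGCC in 11.9% and TGTGNATT in 3.60%. The upstream Sh3bp5 window held 1 CAGAC, starting 30 bases before the transcript start, and the Trim67 window held 1 GGCGCC, starting 160 bases before it. The Nap1l3 window and a second, downstream Sh3bp5 window at chr14:31417628-31417927 held 0 matches to these 4 motifs. The AP-2 motif GCCNNNGGC was in 16.6% of all windows and in 0 of these. GC content was 67.0% in the Trim67 window and 66.7% in the upstream Sh3bp5 window, above 85.6% and 85.0% of all windows, against 53.3% in the Nap1l3 window and a median of 52.7% over all windows. The matched letters describe these windows and no binding was measured.

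Array medians lay between 37 and 49 intensity units, with the 2 SB431542 arrays at 43 and 41, the activin arrays at 38 and 49 and the control arrays at 46 and 37. The arrays give no detection call, so 27 probe sets for unspiked Bacillus transcripts served as background, with intensities up to 34 units and a median log2 intensity of 3.52. The feedback antagonist Lefty2 measured 14 and 16 units in SB431542 cells and 1348 and 1253 units in activin cells, against 497 and 493 units in control cells. The embryonic stem cell markers Pou5f1, Sox2 and Nanog were bright in every group, and 0 of 10 such markers lay within the bacterial range on all arrays.

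Trim67 was low in SB431542 cells and high in both other groups. Its probe set 1436829_at read 24 and 20 intensity units in SB431542 cells and 104 and 124 units in activin cells, against 115 and 98 units in control cells. Both SB431542 arrays lay among the bacterial probe sets, and the other 4 arrays stood above them. The mean log2 intensity was 4.45 ± 0.19 (SD, n = 2) in SB431542 cells and 6.83 ± 0.18 in activin cells, against 6.73 ± 0.16 in control cells. The log2 difference of SB431542 minus control was −2.28, the 10th lowest of 45037 probe sets. Since the low value sits in background, the 4.85-fold difference is limited by that floor. In bulk RNA such as this, fewer cells making a transcript and less of it per cell cannot be told apart. Activin and control arrays overlapped, so their order was not resolved.

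Nap1l3 showed the reverse arrangement. Probe set 1418500_at read 60 and 64 units in SB431542 cells and 20 and 22 units in activin cells, against 23 and 24 units in control cells. All 4 arrays without SB431542 fell inside the bacterial range, while both SB431542 arrays were above it. Mean log2 intensity was 5.95 ± 0.07 (SD, n = 2) in SB431542 cells and 4.39 ± 0.10 in activin cells, against 4.55 ± 0.04 in control cells. The SB431542 minus control difference of 1.40 on the log2 scale ranked 62nd from the highest. A 2.64-fold ratio measured against signal at background has no sure size. The activin values lay just under the control values, with 0.06 log2 units between the nearest arrays.

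Kctd1 gave different answers from its 2 probe sets. Probe set 1422293_a_at, of a type that matches several transcripts of a gene, read 97 and 100 units in SB431542 cells and 43 and 44 units in activin cells, against 34 and 37 units in control cells. Probe set 1425104_at read 86 and 67 units in SB431542 cells and 66 and 115 units in activin cells, against 93 and 73 units in control cells. The first separated all 3 groups, SB431542 highest and control lowest, and the second separated none. On the log2 scale the SB431542 minus control differences were 1.47, the 43rd highest, and −0.12. Their gap of 1.59 log2 units was not tested, since the genes were chosen on this difference. The largest SD of 2 replicate arrays of either probe set was 0.57, in activin cells for 1425104_at. One of the control readings of 1422293_a_at equalled the highest bacterial value of 34 units, so its control level borders on background. Which transcripts the 2 probe sets detect was not analysed here.

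Sh3bp5 also differed between probe sets, although 1421922_at and 1421923_at are annotated to the same source sequence. Probe set 1421923_at read 131 and 126 units in SB431542 cells and 31 and 26 units in activin cells, against 37 and 47 units in control cells. Probe set 1421922_at read 105 and 101 units in SB431542 cells and 88 and 75 units in activin cells, against 71 and 54 units in control cells. Both were highest with SB431542, but the activin arrays lay under control in the first and above control in the second. The third, 1444346_at, read 25 and 18 units in SB431542 cells, 21 units on both activin arrays, and 24 and 19 units in control cells, all inside the bacterial range. SB431542 minus control was 1.62 for 1421923_at, the 22nd highest of all probe sets, 0.73 for 1421922_at, and −0.01 for 1444346_at. Against activin cells, which were within background for 1421923_at, the SB431542 arrays of that probe set were 4.53-fold higher and those of 1421922_at 1.27-fold higher.

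**Figure D1:**
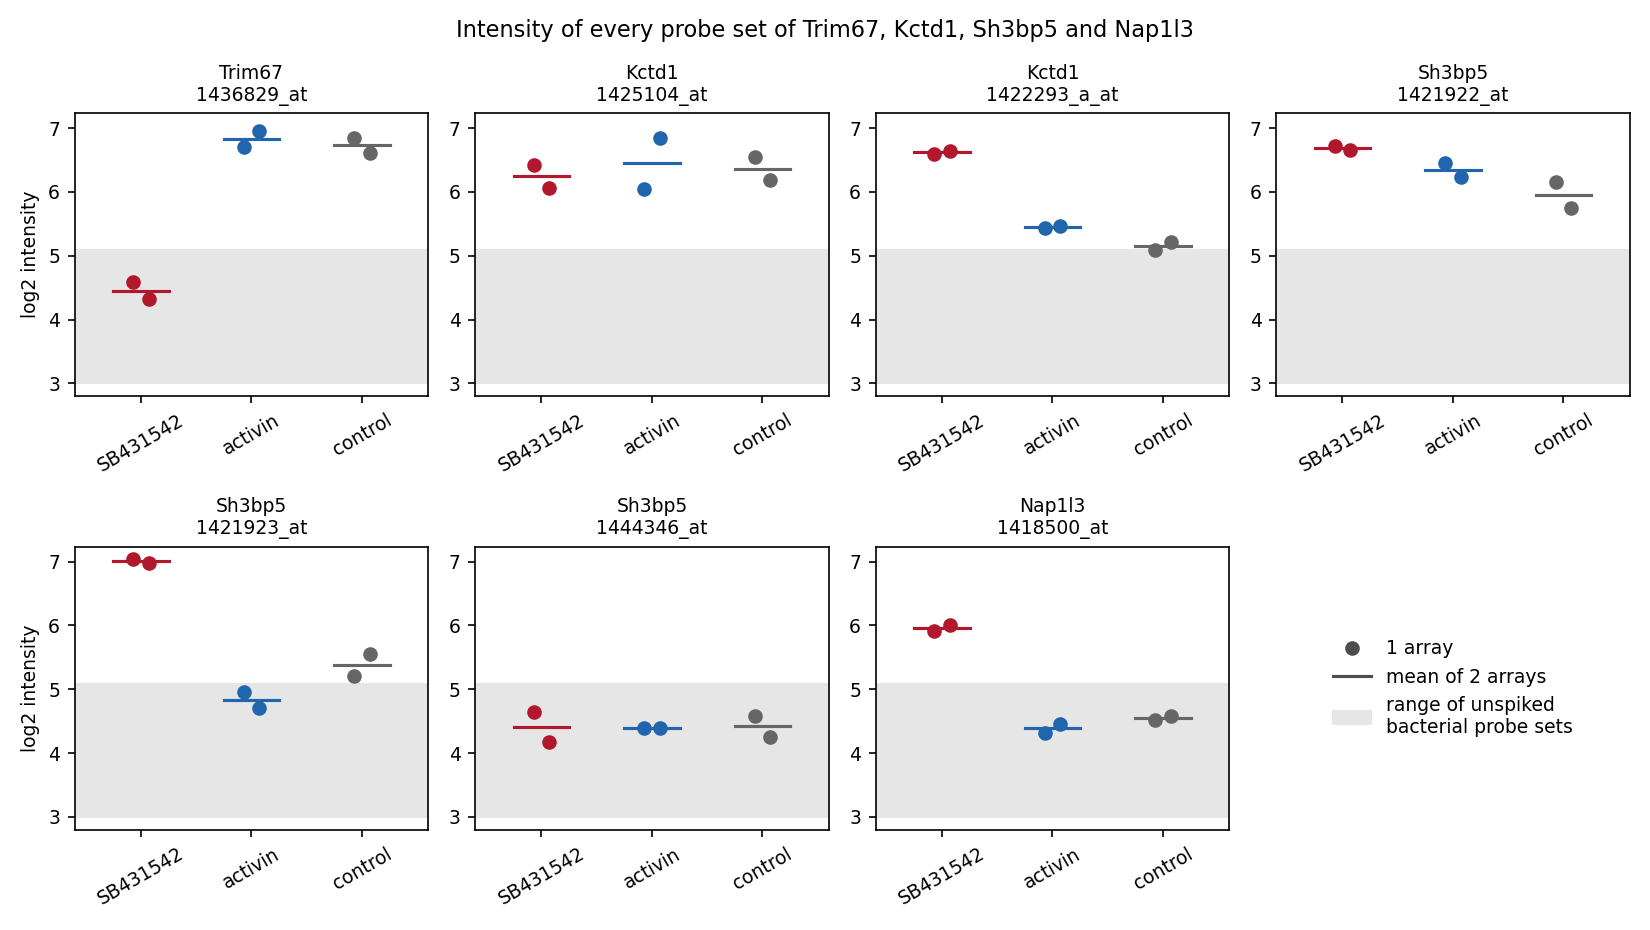
Log2 intensity of each probe set on every array, with SB431542, activin and control groups from left to right, points for arrays, lines for means of 2 arrays and a grey band for the bacterial range. Trim67 entered the band only with SB431542, while Nap1l3 left it only with SB431542, and the second probe sets of Kctd1 and Sh3bp5 did not match the first.

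Counted over the 7 probe sets, 4 were higher and 1 lower in SB431542 cells than in control cells with no overlap between arrays, where 20.6% of all probe sets were higher and 22.1% lower in that way. A difference of at least 2-fold was seen for 3 higher and 1 lower, against 0.673% and 0.451% of all probe sets. Between the treatments, 1 probe set was higher and 4 lower in activin cells than in SB431542 cells without overlap, beside 18.7% and 18.2% of all probe sets, and 1 was higher and 3 lower by at least 2-fold, beside 0.433% and 0.313%. These counts follow from how the genes were chosen. Limma at its default settings called 7 probe sets, 0.0155% of all, in SB431542 against control. Over the 6 arrays, Trim67 correlated with Nap1l3 at r = −0.99, with Kctd1 1422293_a_at at −0.97 and with Sh3bp5 1421923_at at −0.97. Such values describe 6 arrays that share a single large step, and the correlation of the 2 Kctd1 probe sets with each other was −0.25.

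The comparison of activin with control asked whether 2 h of added ligand moved the same genes. It was the comparison in which the 7 probe sets could be tested, although it shares its control arrays with one of the differences that chose the genes. None passed. Limma at its default settings called 0 of 7 probe sets, where 0.0% of all probe sets were called and 2797 of 45037 had an unadjusted p under 0.05, and with an intensity trend and robust estimation it also called 0, where 0.215% were called. The members' adjusted p lay between 0.793 and 1.00 by default and between 0.768 and 1.00 with the trend.

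Sh3bp5 1421923_at had the largest difference, −0.55 (SE 0.17, limma adjusted p = 0.793), with a 95% interval from −0.99 to −0.12 by default and from −1.19 to 0.08 with the trend, neither of which takes account of the other probe sets tested. Its activin arrays lay within the bacterial range. The other probe set, 1421922_at, was at 0.39 (interval −0.06 to 0.84, limma adjusted p = 0.823). Kctd1 1422293_a_at was at 0.29 (interval −0.01 to 0.59, limma adjusted p = 0.807), a fold of 1.23. Nap1l3 was at −0.16 (interval −0.48 to 0.15, limma adjusted p = 0.880) and Trim67 at 0.10 (interval −0.33 to 0.53, limma adjusted p = 0.959). The activin and control readings of Nap1l3 all lay within the bacterial range, so a fall with activin could not have shown there and its interval sets no limit on one. Without overlap between arrays, 2 probe sets were higher and 2 lower in activin cells than in control cells, beside 14.7% and 14.5% of all probe sets, and 0 differed by at least 2-fold, beside 0.289%. After repeated quantile normalization, and after shifting the arrays to 1 median, 0 of 7 were free of overlap.

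**Figure D2:**
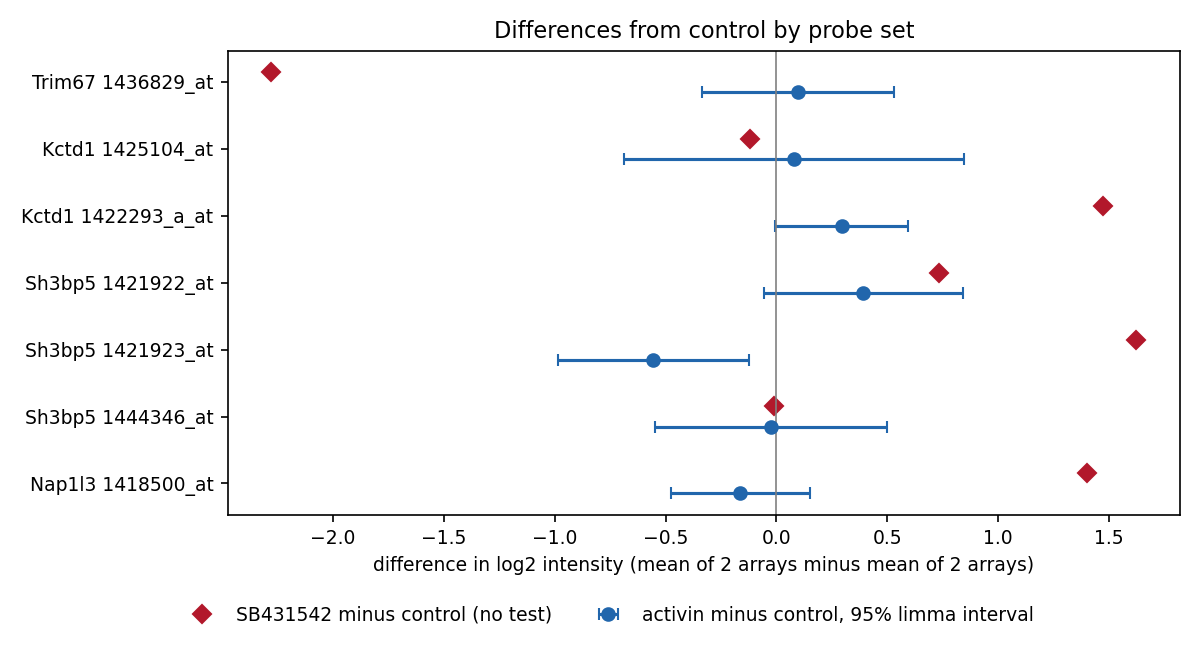
Difference in log2 intensity from control for each probe set, as red diamonds for SB431542 minus control, which was not tested, and blue circles with 95% limma intervals for activin minus control. The red values run from −2.28 for Trim67 to 1.62 for Sh3bp5, while the blue values lie between −0.55 and 0.39.

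Relatives and partners were set beside each gene, using for each gene its probe set of highest mean. None passed limma at default settings in SB431542 against control, the call for which 0.0055% of genes were higher and 0.022% lower, so calls below are those with the intensity trend, by which 4.25% of 18193 genes were higher and 2.23% lower. The median log2 difference over all genes was −0.0021.

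Of the AP-2 factors and Kctd relatives, 4 of 23 measured genes rose with the trend and 0 fell, with a median log2 difference of 0.15. Tfap2a, the AP-2 factor that Kctd1 represses, measured 320 and 363 units in SB431542 cells and 114 and 138 units in activin cells, against 152 and 184 units in control cells. It rose by 1.03 log2 units with SB431542 (SE 0.17 by default, limma adjusted p = 0.182 by default and 9.53e-05 with the trend), and its other 2 probe sets, at 1.30 and 1.06, passed with the trend as well. Tfap2c, the AP-2 factor of trophoblast and germ cells, rose by 0.79 (limma adjusted p = 0.203 by default and 5.00e-07 with the trend), with its other probe sets at 0.71 and 0.77.

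Kctd15, the closest relative of Kctd1 and, in zebrafish, also an inhibitor of AP-2, measured 486 and 495 units in SB431542 cells and 320 and 371 units in activin cells, against 286 and 259 units in control cells. It rose by 0.85 (limma adjusted p = 0.182 by default and 3.93e-05 with the trend). The order of its group means, SB431542 highest and control lowest, was that of Kctd1 1422293_a_at. Kctd2, Kctd13, Kctd14, Kctd16 and Kctd21 had that order too, and were not called. Activin against control was not called for Kctd15 or Kctd1 1422293_a_at (limma adjusted p = 0.532 and 0.920 with the trend). Kctd9 rose by 0.50 with the trend (limma adjusted p = 0.0240), and was not called without control replicate 2 or either SB431542 array, where the adjusted p reached 0.302. Tfap2b, Tfap2d, Tfap2e and Kctd4 lay within the bacterial range on all arrays. With activin, 0 of these 23 genes were called by either setting, with 0.137% of genes higher and 0.011% lower by the trend, and Tfap2a was at −0.42 (limma adjusted p = 0.566 with the trend).

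Around Trim67, 1 of 13 measured genes fell and 0 rose, with a median of −0.16. Ntn1, the ligand netrin-1, measured 447 and 413 units in SB431542 cells and 490 and 610 units in activin cells, against 792 and 641 units in control cells. It fell by 0.73 log2 units with SB431542 (limma adjusted p = 0.252 by default and 1.93e-04 with the trend), while a second probe set gave −0.31 and was not called. The receptor gene Dcc was at −0.16 (limma adjusted p = 0.843 with the trend). Trim9, the closest paralog of Trim67, was at 0.27 (limma adjusted p = 0.832 with the trend), with control arrays as far apart as 48 and 14 units.

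None of the 14 measured relatives and partners of Sh3bp5 was called by either setting, and their median was −0.01. Its paralog Sh3bp5l was at −0.02 and the JNK genes Mapk8 and Mapk9 at −0.15 and −0.04. The Rab11 effectors Rab11fip2 and Rab11fip1 had the largest differences among these, at 0.66 and 0.43 (limma adjusted p = 0.213 and 0.263 with the trend). Their probe sets differed. The second Rab11fip1 probe set was at 1.09 (limma adjusted p = 0.0529 with the trend), with control arrays at 32 and 30 units within the bacterial range, and the other Rab11fip2 probe sets were at 0.08 and 0.0032.

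Of 10 relatives of Nap1l3, 1 rose, 0 fell and the median was 0.02. Tspyl1 rose by 0.56 with the trend (limma adjusted p = 0.374 by default and 0.0133 with the trend), but its second probe set was at −0.13. The call on Tspyl1 was lost without control replicate 2 or without SB431542 replicate 2. Nap1l2, the neural relative of Nap1l3, measured 59 and 57 units in SB431542 cells and 38 and 52 units in activin cells, against 61 and 39 units in control cells, so the groups overlapped. The ubiquitous chaperone Nap1l1 was at 0.01.

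**Figure D3:**
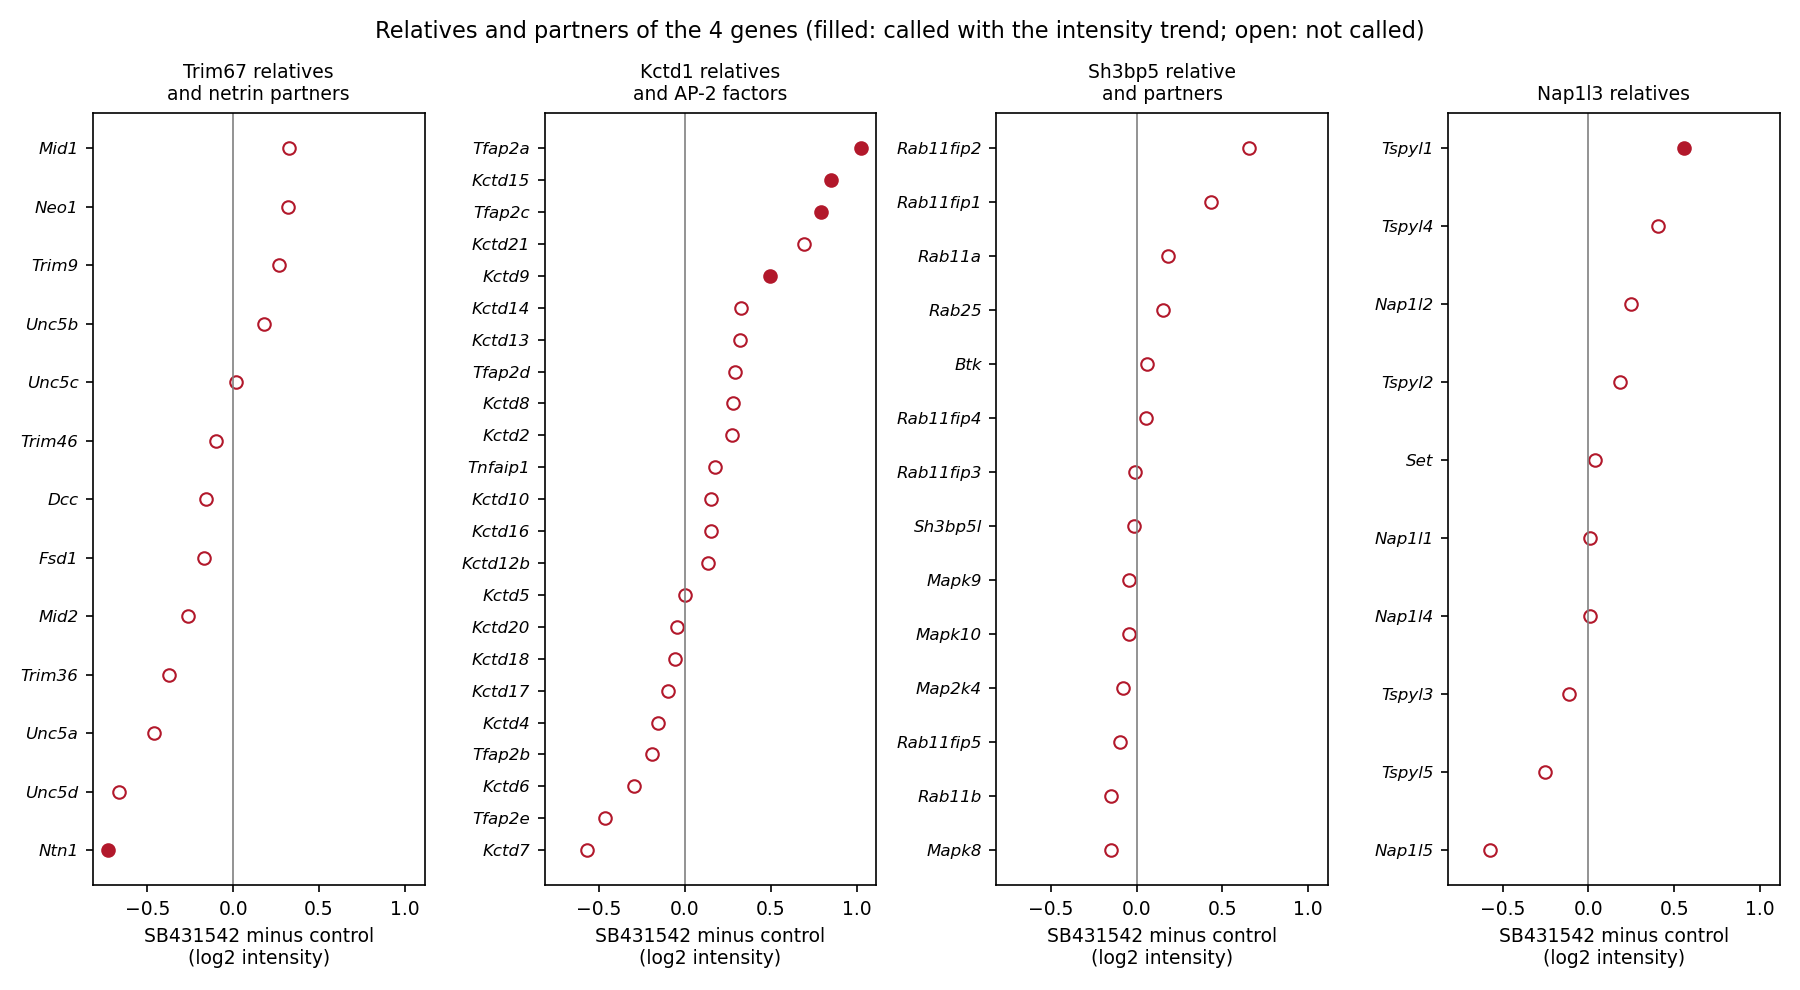
Log2 difference of SB431542 minus control for each measured relative or partner of the 4 genes, filled where limma with the intensity trend called it. Tfap2a, Kctd15, Tfap2c and Kctd9 were the called genes around Kctd1, Ntn1 around Trim67, Tspyl1 around Nap1l3, and 0 around Sh3bp5.

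The genes next to the 4 on their chromosomes were read from the RefSeq table, taking the 2 nearest protein-coding genes on each side, of which 14 of 16 had a named probe set. With the trend 1 was higher and 1 lower in SB431542 cells, and 0 were called by default. Fam89a, next to Trim67, measured 57 and 43 units in SB431542 cells and 118 and 108 units in activin cells, against 99 and 106 units in control cells. SB431542 cells were thus lowest for Fam89a, as they were for Trim67. Fam89a fell by 1.05 log2 units (SE 0.17, limma adjusted p = 0.182 by default and 0.00784 with the trend), and missed the threshold with the trend without control replicate 2 or without SB431542 replicate 2. Arv1, on the far side of Fam89a, was at −0.42, and 2810004N23Rik and Gnpat, on the other side of Trim67, at 0.06 and 0.20, none of them called. Capn7, beside Sh3bp5, rose by 0.35 with the trend (limma adjusted p = 0.0414), and lost that call without control replicate 2 or without either SB431542 array. Neighbours of Kctd1 with signal above background, Taf4b and Psma8, were at 0.05 and −0.01. Of the others measured, Aqp4, Chst9, Dnah1, Mettl6, Eaf1, Pcdh11x and Cldn34c1, 0 were called.

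The genes whose values ran closest to each member over the 6 arrays were found by the root mean square difference of log2 values centred on their own mean. For Trim67 these were Eomes, a T-box factor of mesendoderm, at a distance of 0.12 log2 units, then Psmb8, an immunoproteasome subunit, at 0.24, Chst15, a chondroitin sulfotransferase, at 0.25, and the ligand Fgf15 and the homeobox factor Mixl1 at 0.28 each. Eomes, the closest, was at −2.32 with SB431542 and 0.25 with activin, beside −2.28 and 0.10 for Trim67. These are values of the brightest Eomes probe set, and the other was at −1.15 with SB431542. The Trim67 difference with SB431542 is limited by background, so its nearness to that of Eomes is not sure.

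For Nap1l3 the closest were Arhgap29 at 0.09, Phlda2, an imprinted gene that limits placental growth, at 0.12, Id2 at 0.13, the imprinted Peg10 at 0.15 and the placental homeobox gene Esx1 at 0.16. All of these were higher in SB431542 cells, by 1.18 to 1.60 log2 units, a direction that follows from the search for values like those of Nap1l3. As Nap1l3 lay at background outside SB431542, its step and so these distances have no sure size. For Id2 they refer to its probe set of highest mean. Its others were at 0.73 and 1.10 with SB431542, and at −0.64 (limma adjusted p = 0.00108 with the trend) and −0.51 with activin. For Sh3bp5 1421923_at the closest were Id2 at 0.22, Ascl2, a trophoblast factor, at 0.24 and 3830417A13Rik at 0.26. Nap1l3 itself followed at 0.29 and the T-box gene Tbx20 at 0.33. For Kctd1 1422293_a_at the closest were the kinase gene Nrk and the actin regulator gene Baiap2l1 at 0.09 each. Rhox6, a homeobox gene, followed at 0.15, and Vgll3 and Arhgap29 at 0.16 each. These 2 probe sets were added after their values were seen, since the probe sets of highest mean were the others of each gene. For those, 1421922_at of Sh3bp5 ran closest to 2310022A10Rik, Etv3, Nup54, Sema3e and C330018D20Rik, within 0.07 log2 units, and 1425104_at of Kctd1 to Grin3a, Mir142, Sncg, 4732416N19Rik and Aifm2, likewise within 0.07.

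**Figure D4:**
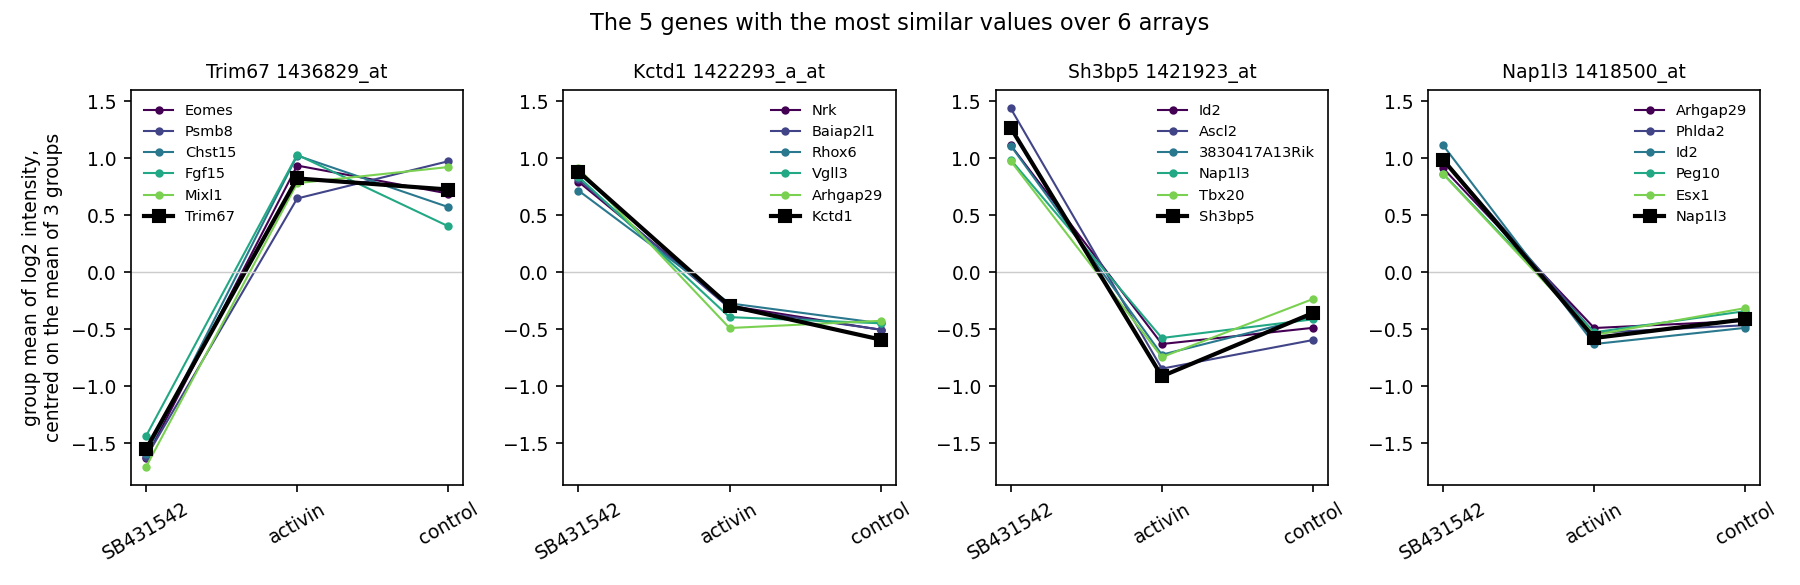
Group means of log2 intensity, centred on the mean of the 3 groups, for the probe set with the largest SB431542 difference of each gene (black squares) and the 5 genes with the smallest distance over 6 arrays (coloured circles). Trim67 and its 5 closest genes were lowest with SB431542, and the other 3 panels show genes highest with SB431542, as follows from the search by distance.

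Marker lists of cell types were read on the same arrays. Of 10 embryonic stem cell markers 1 rose and 5 fell with the trend, with sums of 48450 to 49488 units in SB431542 cells and 55694 to 56356 units in activin cells, against 54657 to 55733 units in control cells. Dppa5a, the brightest, measured 14088 and 14946 units in SB431542 cells and 17117 and 18040 units in control cells. It weighs most in these sums. With the trend Klf4 rose by 0.50. Pou5f1 fell by 0.43, Utf1 by 0.33, Dppa5a by 0.28, Tdgf1 by 0.26 and Nanog by 0.24, while Sox2 was at −0.05. Trophoblast markers had summed intensities of 17646 to 17905 units in SB431542 cells and 10698 to 11010 units in activin cells, against 11470 to 13248 units in control cells. Krt8 and Krt18 were the brightest of them, at 7026 and 6574 units on SB431542 array 1. Of the 10 markers 7 rose with the trend, led by Ascl2 at 2.03, Gata3 at 1.29 and Esx1 at 1.18, and Ascl2 passed also by default. Cdx2, at 151 to 264 units over the arrays, was at −0.11 and not called. Elf5 and Tpbpa stayed within the bacterial range on every array. Hand1 and Gata3 are counted among the BMP targets below as well. Tfap2c is also counted among the AP-2 factors above, and the stem cell marker Tdgf1 among the Nodal/Activin targets below. Neural markers summed to 3977 to 4215 units in SB431542 cells and 4113 to 4404 units in activin cells, against 4412 to 4579 units in control cells. Stmn2 alone measured 2986 and 3342 units in SB431542 cells, so these sums mainly reflect that gene. Pax6 was the 1 of 12 called and rose by 0.74 with the trend, and Dcx and Snap25 lay within the bacterial range throughout. Fibroblast markers summed to 280 to 297 units in SB431542 cells and 418 to 469 units in activin cells, against 332 to 372 units in control cells, and 1 of 8, Col1a1, fell with the trend. Extraembryonic endoderm markers summed to 401 to 410 units in SB431542 cells and 385 to 532 units in activin cells, against 396 to 471 units in control cells, with 0 of 8 called and Afp within the bacterial range. Extraembryonic Sox17 and Sox7 were at −0.50 and −0.34. The part of these cell types in the values of Trim67, Kctd1, Sh3bp5 and Nap1l3 was not tested.

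Known targets of the pathway were read on the same arrays. Of 13 measured Nodal/Activin targets, 11 fell with the trend and 3 by default, with a median log2 difference of −1.10. Of 13 BMP targets 9 rose with the trend and 0 by default, with a median of 0.88. Lefty1, Lefty2, Mixl1, Fgf8 and Eomes were the targets furthest down, at −5.53, −5.05, −2.63, −2.45 and −2.32, and Id2, Gata3, Hand1, Dlx3 and Gata2 the BMP targets furthest up, at 1.60, 1.29, 1.09, 1.02 and 0.95. Other probe sets gave smaller differences for Eomes, at −1.15, and for Id2, at 0.73 and 1.10. The BMP targets not called were Id1 at 0.60, Bambi and Tbx3 at 0.10 each, and Msx1 at −0.32. Cer1 and Gsc, the Nodal/Activin targets not called, lay within the bacterial range on all arrays. Nodal was at −1.10 and Id3 at 0.48 with SB431542, and at 0.14 and −1.04 with activin. With activin Lefty2 rose by 1.39 and Id3 fell by 1.04 (limma adjusted p = 2.03e-06 and 2.36e-09 with the trend). Most targets did not pass with activin. With the trend 3 of 13 Nodal/Activin targets rose and 1 of 13 BMP targets fell, beside 0.137% and 0.011% of genes, and 0 passed by default. Lefty1 at 1.42, Nodal and Eomes were not called (limma adjusted p = 0.341, 0.852 and 0.871 with the trend). The 7 probe sets of Trim67, Kctd1, Sh3bp5 and Nap1l3 likewise included none that passed.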

How the data were processed

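Expression was measured on 6 single-colour Affymetrix arrays. The authors deposited 1 linear intensity per probe set and array, in whole numbers from 6 to 26405, made with RMA, per the submitters' processing notes, with no version given. RMA output is log2, so the values had been unlogged and rounded, which coarsens dim signals. Here each intensity was converted to log2 without further normalization, 64 control probe sets were left out, and 45037 were fitted in limma 3.58.1 (R 4.3.3), each group having its mean and all 6 arrays sharing a spread. The Benjamini-Hochberg adjustment ran over all probe sets (threshold 0.05), and p-values measure only the spread between arrays, which may be technical. The intensity trend means eBayes with trend and robust estimation. The number of arrays limits precision. Groups came from sample titles, where 1 title spells the inhibitor SB432542.

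Of the probe sets, 34945 have 1 symbol, 932 several and 9160 none, and 34741 Entrez identifiers were found in RefSeq, changing 0 symbols. The 4 genes and all lists were chosen with earlier results of these data known. Named were every member probe set, the 5 closest genes, called list members (at most 5 a list) or the 2 largest differences, paralogs, 7 known pathway and cell markers and chromosomal neighbours. Other probe sets, marker names and list medians shown beside them were picked afterwards. The fit was tested on simulated data for SB431542 against control. Of changes of 1 log2 unit it recovered 31.2% by default and 50.8% with the trend, and of 2 log2 units 95.2% and 97.2%. Smaller changes, such as those of the members between activin and control, were not simulated. Alternatives were another moderation, 2 rescalings, an offset of 16, a filter on the dimmest 40%, a replicate block and leaving out each array.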

Additional observations from a re-analysis of the deposited data

How the results depend on the processing

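In every alternative run, activin against control called 0 of the 7 probe sets. The number called over all probe sets was far less stable than these values. With the intensity trend 97 were called in activin against control, 2242 in SB431542 against control and 1024 in activin against SB431542, with default counts of 0, 7 and 9. Arrays shifted to 1 median gave 78, 791 and 412. Repeated quantile normalization gave 40 and 49 in the comparisons with SB431542, an offset of 16 gave 41 and 64, and leaving out the dimmest 40% gave 21 and 30, while all 3 left activin against control at 0. Leaving out each array gave 0 in all 3 comparisons by default. With the trend it gave 21 to 201 in activin against control, 947 to 2560 in SB431542 against control and 402 to 1493 in activin against SB431542. The replicate block gave 0, 0 and 1. Same-numbered arrays deviated together at r = −0.14, 0.02 and −0.09. These values showed no pairing by number, but 2 arrays a group cannot exclude one. Crossing the activin numbers in the replicate block, chosen after seeing the data, gave 2 and 3 in the comparisons with SB431542.

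The offset of 16 compressed the dim members. SB431542 minus control became −1.69 for Trim67, 1.15 for Kctd1 1422293_a_at, 1.32 for Sh3bp5 1421923_at and 0.98 for Nap1l3, and activin minus SB431542 became 1.77, −0.94, −1.70 and −1.08. Leaving out each array, SB431542 minus control ranged from 1.41 to 1.53 for Kctd1 1422293_a_at and from 0.54 to 0.93 for Sh3bp5 1421922_at, and activin minus SB431542 from −0.20 to 0.60 for Kctd1 1425104_at. Activin minus control changed sign between −0.0297 and 0.22 for Trim67, −0.32 and 0.48 for Kctd1 1425104_at, and −0.19 and 0.14 for Sh3bp5 1444346_at. The members free of overlap in activin against control numbered 0 after either rescaling, where the cause was not tested. Averaging all probe sets per gene turned the SB431542 medians to −0.79 for Nodal/Activin targets, 0.60 for BMP targets and −0.0471 for embryonic stem cell markers, and with arrays shifted the activin median of those markers became −0.0494. By Pearson correlation, 1 of the 5 genes closest to Trim67 and 1 of those closest to Nap1l3 were shared with the distance. Signal over background limits Sh3bp5 1444346_at on all arrays, Nap1l3 outside SB431542, Trim67 with SB431542, Sh3bp5 1421923_at with activin and Kctd1 1422293_a_at on 1 of 2 control arrays.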
